A study of Drosophila melanogaster with 3 samples.

Results

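The Hippo pathway genes described here are 10 core genes of that pathway in Drosophila melanogaster, hippo (hpo), salvador (sav), warts (wts), yorkie (yki), scalloped (sd), expanded (ex), Merlin (Mer), kibra, fat (ft) and dachsous (ds). They were chosen by gene symbol, not by a measured value, from 13968 protein-coding genes of the annotation, and all 10 symbols matched. The choice was made with earlier results of these data known. For each gene, peak summits were collected within 500 bp of a transcription start site (TSS), in the gene body, or within 5 kb of either end. In the authors' thresholded list of 6626 peaks, 43 summits lay in these neighbourhoods, and every one of the 10 genes had at least 1.

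The peaks come from chromatin immunoprecipitation and sequencing (ChIP-seq) of Coop (CG1621), a protein known as a corepressor that binds Pangolin, the TCF factor of Wingless signalling. All libraries are of 1 group: whole prepupae at 24 h, males and females pooled, of a stable transgenic line in which Coop carries eGFP (a green fluorescent tag) at its C-terminal end, with 3 biological replicates and no untagged or untreated group. The promoter that drives the transgene is not given in the sources used here, and in whole animals strong binding in few cells cannot be told apart from weak binding in many. The free text of each library speaks of an input control, whereas its assay, antibody and deposited notes describe a ChIP library with a separate control that all 3 replicates shared, and the values below hold for a ChIP library. Read depth is unknown, so signals were ranked within each list, with a percentile of 100 for the strongest of its regions.

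The Hippo pathway restrains the growth of tissues. The kinase Hpo with the scaffold Sav activates the kinase Wts, and Wts phosphorylates the coactivator Yki and keeps it from the nucleus, where Yki otherwise works with the DNA-binding factor Sd to switch on genes for growth and survival. Upstream, the FERM-domain proteins Ex and Mer and the WW-domain protein Kibra activate the kinases at the apical cell cortex, and the large cadherin Ds is the ligand of the cadherin receptor Ft. In flies the pathway is best known from the imaginal discs, the larval tissues that form the adult wings, eyes and legs, and ex, Mer and kibra are themselves activated by Yki as negative feedback.

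The regions that the results turn on are shown first, as the summit with 100 bp on either side, on dm6 and on the plus strand, from the RefSeq release 6 genome. These are the 3 strongest of the 43 summits, at ds and ex, the strongest in kibra, and the kibra summit with the most matches to the Scalloped core. Capitals mark matches, on either strand, to the searched sequences: GAGAG (the GAGA repeat) in the ds upstream region and, as CTCTC, in the ex region, CTTTGAT (the Pangolin core) in the kibra region of highest signal, and GGAATG (the Scalloped core, read here as CATTCC) in the other kibra region. The ds intron 2 region holds none of the searched sequences.
ds upstream, chr2L:715458-715658: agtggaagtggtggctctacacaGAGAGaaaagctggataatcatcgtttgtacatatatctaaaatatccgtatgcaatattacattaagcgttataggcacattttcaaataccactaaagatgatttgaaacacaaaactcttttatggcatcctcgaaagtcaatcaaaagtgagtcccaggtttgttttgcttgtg
ds intron 2, chr2L:670871-671071: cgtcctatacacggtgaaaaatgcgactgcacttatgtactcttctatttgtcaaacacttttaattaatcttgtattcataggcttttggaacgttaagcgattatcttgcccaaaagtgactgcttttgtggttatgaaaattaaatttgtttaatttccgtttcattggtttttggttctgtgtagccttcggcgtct
ex intron 3, chr2L:442013-442213: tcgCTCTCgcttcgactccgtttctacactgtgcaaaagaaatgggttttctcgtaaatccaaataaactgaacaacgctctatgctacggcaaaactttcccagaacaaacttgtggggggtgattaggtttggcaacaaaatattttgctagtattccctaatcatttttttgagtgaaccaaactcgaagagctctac
kibra intron 1 (highest signal), chr3R:14715255-14715455: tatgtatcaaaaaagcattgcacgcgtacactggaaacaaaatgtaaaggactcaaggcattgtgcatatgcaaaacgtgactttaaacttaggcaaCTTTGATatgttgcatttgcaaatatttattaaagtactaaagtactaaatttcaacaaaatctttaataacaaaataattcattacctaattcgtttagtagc
kibra intron 1 (Scalloped core), chr3R:14711831-14712031: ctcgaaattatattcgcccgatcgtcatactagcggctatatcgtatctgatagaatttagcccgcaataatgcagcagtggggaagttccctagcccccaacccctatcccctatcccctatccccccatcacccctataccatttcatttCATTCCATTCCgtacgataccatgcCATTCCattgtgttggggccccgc

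Of the 10 genes, 6 (hpo, sd, ex, Mer, kibra and ft) had a thresholded summit within 500 bp of a TSS, against 21.1% of all protein-coding genes. Long genes more often have such a summit: of protein-coding genes of at least 10 kb, 37.9% had one, and among the 6 Hippo genes of that length (wts, sd, ex, kibra, ft and ds) it was 4. All 10 genes had a summit in the body or within 5 kb, where the share was 51.2% of all protein-coding genes and 69.3% of those of at least 10 kb. The 6 long Hippo genes held 35 of the 43 summits and the 4 short ones held 8. With 10 genes and no second condition these are counts set beside a background, with no test.

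**Figure D1:**
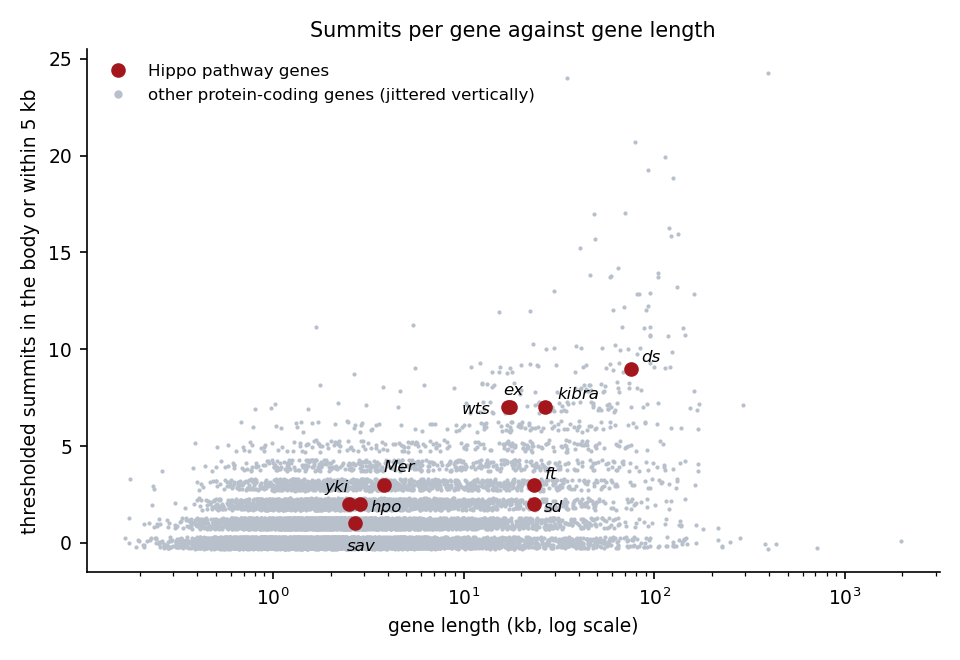
Thresholded summits in the gene body or within 5 kb (vertical axis) against gene length in kb (horizontal axis, log scale), with the 10 Hippo pathway genes as red points and the other protein-coding genes as grey points. ds, with 9 summits, and wts, ex and kibra, with 7 each, lie above most genes of their length. sav, at 1 summit, has the fewest of the 10, where the median of all protein-coding genes under 10 kb is 0.

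Of the 43 summits, 6 were at the gene's own promoter (within 500 bp of its TSS), 8 were at the promoter of another gene and 29 were at neither. Those 29 are 67.4% of the Hippo summits, against 59.5% of all thresholded summits at no promoter. By place, 20 lay in introns of the gene, 14 upstream, 6 downstream and 3 in exons of the 5′ UTR, and 18 of the intronic ones were more than 500 bp from a TSS of that gene. The median signal was 327 for the 43 summits and 287 for all 6626, and 24 of the 43 were among the upper 3313 of the list.

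The replicates were compared by asking whether the 6626 strongest regions of each held a summit within 100 bp. Of the 43 summits, 24 (55.8%) were found in all 3 replicates, 12 in 2, 6 in 1 and 1 in 0, against 48.0% of all thresholded summits found in all 3. In the relaxed lists of 30000 regions, 38 of the 43 had a region within 100 bp in all 3 replicates. No share of all 6626 summits under this looser rule is set beside that count, so it cannot be read as particular to these genes. The other 5 had one in 2, and replicate 3 lacked it for 4 of these and replicate 2 for 1.

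**Figure D2:**
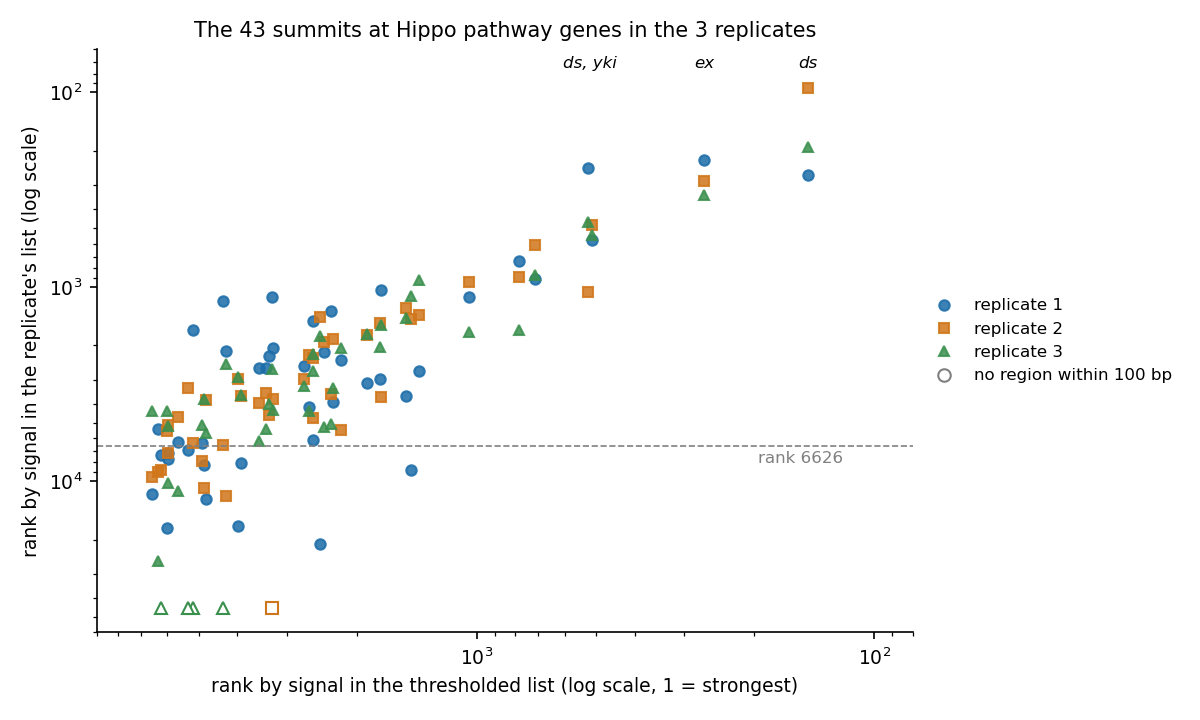
Rank by signal in each replicate's list (vertical axis, log scale, strongest at the top) against rank in the thresholded list (horizontal axis, log scale, strongest at the right) for the 43 summits, with open symbols where a replicate has no region within 100 bp and a dashed line at rank 6626. The strongest summits, in the neighbourhoods of ds, ex and yki, rank high in all 3 replicates, and the spread between replicates widens among the weaker ones. The thresholded list was derived from the same libraries.

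**Figure D3:**
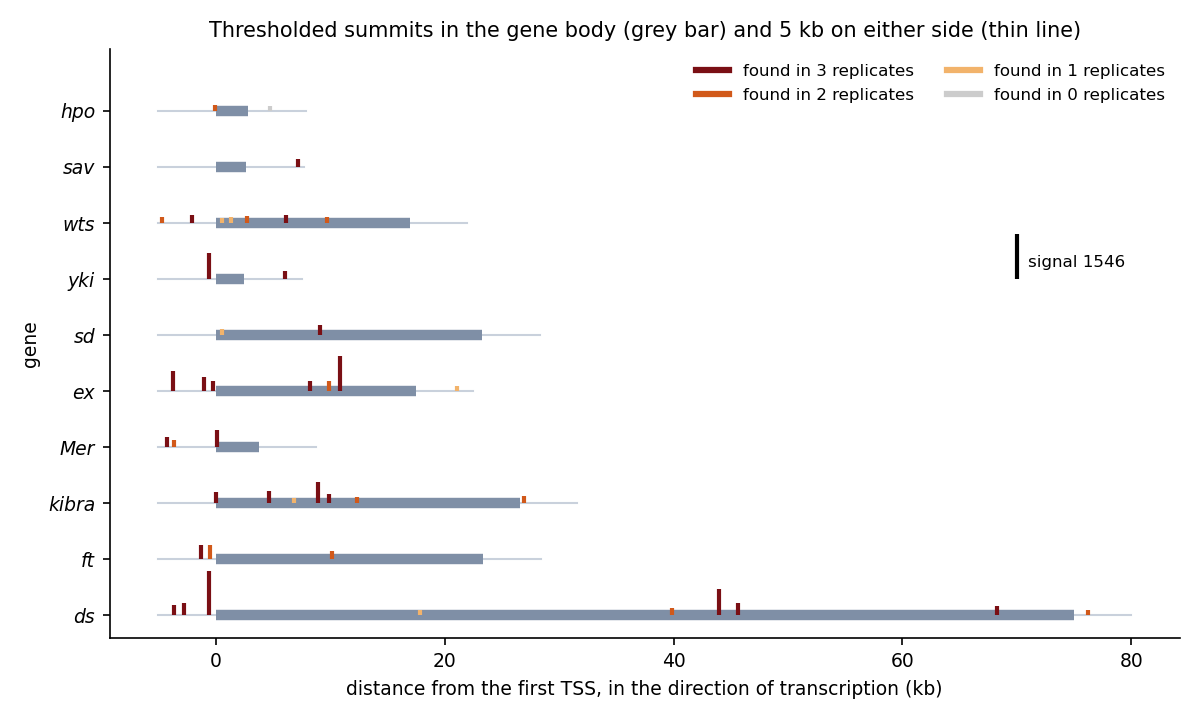
Thresholded summits along each gene, in kb from its first TSS in the direction of transcription, with height proportional to signal (scale bar, 1546) and colour for the number of replicates in which the summit was found. The tallest are just upstream of ds, in intron 3 of ex and in intron 2 of ds.

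At the ligand and its receptor, binding was strongest outside the promoter window, as it also was at ex, kibra, wts and yki. At ft the margin was small (signals 507 and 493). ds (FBgn0284247, chr2L:640013-714983, minus strand) had 9 thresholded summits, a number reached by 0.580% of all genes and by 3.88% of those of at least 10 kb. Over the 84971 bp of the gene and 5 kb on either side this is 1.06 summits per 10 kb. Densities of the other genes are counted over the same kind of span. The 5 main chromosome arms together hold 0.499, but they include sequence outside gene neighbourhoods, and even sd, the lowest here, has 0.600. No density over such spans of all genes is given, so no excess is read from these values. The strongest summit of any Hippo gene, with a signal of 1546 and rank 147 of 6626, lay 575 bp upstream of the ds TSS, so it falls just outside the 500 bp window. It ranked 265, 95 and 192 in replicates 1, 2 and 3, a percentile of 99.4 ± 0.284 (SD, n = 3). All 3 replicates place it near the top of their lists, but the thresholded list was derived from the same libraries, so this is no independent check.

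A second strong ds summit, 44012 bp into the gene in intron 2 (signal 896, rank 513), ranked 572, 483 and 541 in replicates 1, 2 and 3, a percentile of 98.2 ± 0.151 (SD, n = 3). Another intron 2 summit, 45616 bp from the TSS, had a signal of 418 and was also found in every replicate. Further upstream, summits 2747 and 3658 bp before the TSS (signals 440 and 367) were found in all 3 replicates as well. The ds TSS itself had only a weak region: its percentiles in replicates 1, 2 and 3 were 79.5, 23.8 and 39.5, a spread that leaves its rank unsettled.

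ft (FBgn0001075, chr2L:4198404-4221796, minus strand) had 3 summits in 23393 bp, and 2 of them lay upstream of its TSS. The stronger, 1295 bp upstream (signal 507, rank 1395), ranked 2712, 1392 and 926 in replicates 1, 2 and 3. The promoter summit, 491 bp upstream and just inside the window (signal 493), ranked 8717, 1460 and 1122 in the same order, so replicate 1 did not hold it among its top 6626. Replicate 1 did hold another promoter region there, 250 bp upstream of the TSS and ranked 4540. The last thresholded summit, in intron 2 (signal 290), ranked 1123 in replicate 1 and 2649 in replicate 3. Replicate 2 had no summit within 100 bp of it, but a region ranked 2029 whose summit, at chr2L:4211436, was farther off. Upstream summits were thus present at both genes, 3 at ds and 2 at ft. They were not particular to this pair: hpo, wts, yki, ex and Mer had upstream summits as well.

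The upstream activators Ex, Mer and Kibra all had a promoter summit found in every replicate. ex (FBgn0004583, chr2L:431227-448701, plus strand) had 7 summits, as many as 1.31% of all genes and 8.41% of those of at least 10 kb have or exceed, at 2.55 per 10 kb. Its strongest, 10886 bp downstream of the TSS in intron 3 (signal 1205, rank 268), ranked 222, 287 and 337 in replicates 1, 2 and 3, a percentile of 99.1 ± 0.192 (SD, n = 3). After the ds upstream summit it was the strongest of the 43, and its rank moved little between replicates.

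Upstream of ex lay a row of 3 summits at 3703, 997 and 196 bp from the TSS, with signals of 709, 482 and 363, each found in all 3 replicates. The one at the promoter ranked 1333, 3551 and 5096 in replicates 1, 2 and 3. Of the 2 weaker intron 3 summits, the one 9881 bp from the TSS (signal 349) ranked 21029 in replicate 1, against 1434 and 1784 in replicates 2 and 3. The last summit of this neighbourhood, 3652 bp past the end of ex, lay 399 bp inside crq, a scavenger receptor gene, and was found only in replicate 3.

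Mer (FBgn0086384, chrX:19689697-19693500, minus strand) had the strongest promoter summit of the Hippo genes. It lay 89 bp downstream of the TSS, in intron 1, with a signal of 603 and rank 1046, and it ranked 1133, 943 and 1717 in replicates 1, 2 and 3. The other 2 summits lay 3617 and 4248 bp upstream of Mer, inside a neighbouring gene, 26 and 657 bp from the TSS of that gene. The first of them is thus at the promoter of the neighbour. The nearer of these ranked 11923 in replicate 2, against 2129 and 2492 in replicates 1 and 3, so only the promoter summit and the one 4248 bp upstream were found in all 3.

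kibra (FBgn0262127, chr3R:14697689-14724261, minus strand) had 7 summits, of which 5 lay in intron 1, 1 in the 5′ UTR at the promoter, and 1 outside the gene. The strongest, 8906 bp from the TSS (signal 747, rank 714), ranked 912, 610 and 867 in replicates 1, 2 and 3. The promoter summit, 60 bp downstream of the TSS (signal 378), ranked 2377, 5458 and 2068. Another, 4693 bp into the gene (signal 437), was found in all 3 replicates too. The summit past the end of kibra lay 64 bp upstream of the TSS of Meltrin, a metalloprotease gene, and had no region in replicate 3.

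The core kinase genes hpo and wts and the scaffold gene sav had weaker summits. hpo (FBgn0261456, chr2R:19493996-19496856, minus strand) had its promoter summit 32 bp upstream of the TSS, with a signal of 209 and rank 5176. In replicates 1 and 2 it ranked 1673 and 6380, and replicate 3 had no region there. The other hpo summit, 1921 bp past the end of the gene, lay 12 bp upstream of the TSS of Rep, which encodes a Rab escort protein, and was the only one of the 43 found in no replicate.

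sav (FBgn0053193, chr3R:23058609-23061304, minus strand) had no thresholded summit of its own: the 1 in its neighbourhood lay 4485 bp outside the gene, 42 bp upstream of the TSS of p53. That summit (signal 291) was found in all 3 replicates and ranked 2067, 3787 and 4314. At the sav TSS the relaxed lists held only regions ranked 17684, 9908 and 8119 in replicates 1, 2 and 3, all below the top 6626.

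wts (FBgn0011739, chr3R:30789625-30806619, minus strand) had 7 summits, 2.59 per 10 kb, the highest density of the 10 genes, but the strongest had a signal of only 283, below the median of the whole list. It lay 2052 bp upstream of wts and 54 bp inside cindr, which encodes an adaptor protein. The strongest within wts (signal 275), in an exon of the 5′ UTR 6135 bp from the TSS, ranked 2608, 3974 and 6188 in replicates 1, 2 and 3. Only these 2 of the 7 were found in all 3 replicates. A weak summit in intron 1, 596 bp from the TSS, was found in replicate 1 alone. wts was thus covered by many weak summits, with none at its promoter.

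Of the pair that reaches the DNA, yki had the stronger summit in its neighbourhood, but its 2 summits lay at promoters of other genes. sd had a summit at a start site of its own. In the neighbourhood of yki (FBgn0034970, chr2R:24065975-24068485, minus strand), a summit of signal 885 and rank 524 lay 534 bp upstream of the TSS, and it ranked 244, 1065 and 465 in replicates 1, 2 and 3. It also lay 31 bp upstream of a TSS of Gpat4, a glycerol phosphate acyltransferase gene, so by the 500 bp rule it is a promoter summit of Gpat4 and not of yki. In replicate 2 its position was 446 bp from the yki TSS, inside the window, and this alone put yki among the genes with a strong promoter region there. The other yki summit, 3560 bp past the end of the gene, lay 16 bp from the TSS of the ribosomal protein gene RpL39, and was found in all 3 replicates.

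sd (FBgn0003345, chrX:15804370-15827682, plus strand) has 7 annotated TSS, the other 9 genes 1 each, and it had the lowest density of summits, 0.600 per 10 kb. Its promoter summit lay 44 bp upstream of an internal TSS (signal 339, rank 2584) and ranked 1505, 4717 and 2700 in replicates 1, 2 and 3. At the first TSS a weaker summit (signal 221), 519 bp downstream and just outside the window, was found in replicate 3 only. Replicate 2 had a region ranked 5514 whose summit lay 383 bp downstream of that TSS, more than 100 bp from this summit.

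Levels at the promoter were then compared between genes by the strongest region within 500 bp of a TSS in each replicate. Within this window Mer came first, with percentiles of 96.2, 96.9 and 94.3 in replicates 1, 2 and 3. Its mean was 95.8 ± 1.34 (SD, n = 3). Next were ft at 92.1 ± 6.28, sd at 90.1 ± 5.41, kibra at 89.0 ± 6.25 and ex at 88.9 ± 6.31. The value of sd is the highest over its 7 TSS, that of each other gene is from 1 TSS. For ft, the region in replicate 1 was the one 250 bp upstream of the TSS, not the thresholded promoter summit. Mer was above sd, kibra and ex in each of the 3 replicates, and above ft in replicates 1 and 2. The means of ft, sd, kibra and ex differed by less than the SD of each of these genes over its replicates. sav, at 60.3 ± 17.0, and ds, at 47.6 ± 28.7, were lower and varied more. The strongest summits near ds and yki, 575 and 534 bp upstream, lie outside this window. Their mean percentiles, 99.4 and 98.0, were above that of Mer. hpo (94.4 and 78.7), yki (78.6 and 96.5, the second being the Gpat4 summit) and wts (54.1 and 46.3) had a region in replicates 1 and 2 only.

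**Figure D4:**
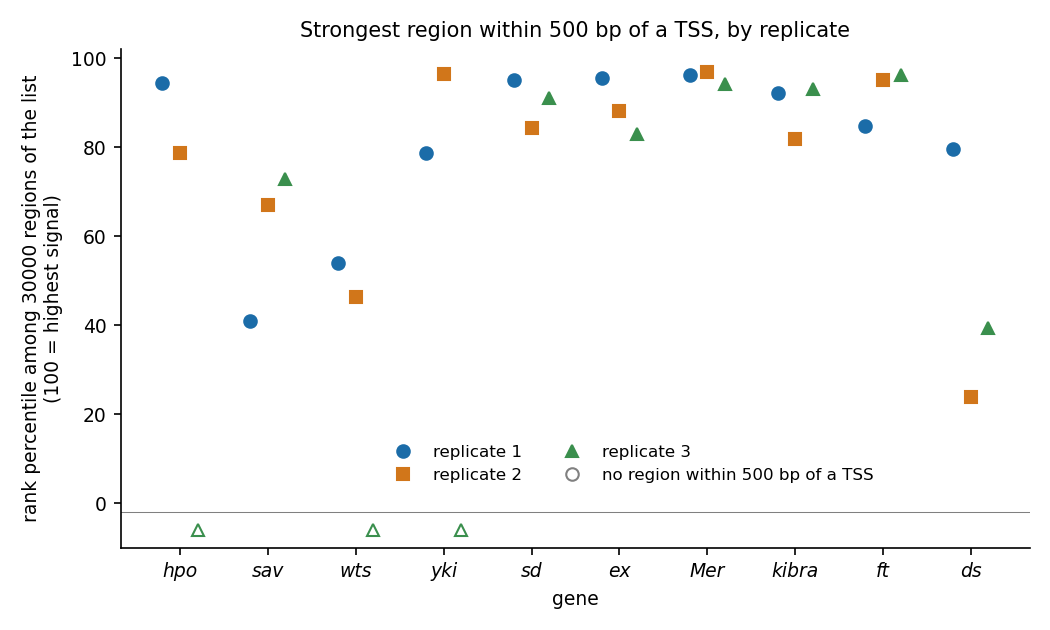
Rank percentile, among the 30000 regions of each replicate's list, of the strongest region within 500 bp of a TSS of each gene, with 1 symbol per replicate and open symbols where there was none. Mer lies between 94.3 and 96.9 in all 3 replicates, whereas ds runs between 23.8 and 79.5, and hpo, wts and yki lack a region in replicate 3.

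Among the 6626 strongest regions of each replicate, 8, 7 and 5 of the 10 genes had a promoter summit in replicates 1, 2 and 3 (mean 6.67 ± 1.53, SD, n = 3), against 25.9%, 21.3% and 18.1% of all protein-coding genes. The 5 of replicate 3 (sd, ex, Mer, kibra and ft) were also among those of the other 2 replicates. In the full relaxed lists the counts were 10, 10, 7 and 9 in replicates 1, 2, 3 and the pooled list, where 51.5%, 46.1%, 36.5% and 41.3% of all genes had one. The number of genes with a promoter region fell in the same replicate order for the Hippo genes and for all genes in the top regions. By closeness of the 3 percentiles, the genes most like Mer among 3983 with a promoter region in every list were wtrw (distance 0.829 percentile points), and HemK2 and Snapin (both 0.898), which share 1 region.

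Sequence matches at the 43 summits were few. The Scalloped core GGAATG occurred within 100 bp of 3 of the 43 summits (6.98%), against 8.12% of all 6626. Of these 3, 2 were in kibra intron 1. The one shown above (signal 219, rank 4899) was found in 2 replicates. It has 3 matches, which begin 52, 57 and 77 bp from its summit, the first 2 overlapping. The other (signal 327) has 1, which begins 5 bp from its summit. The remaining one was at the RpL39 promoter beside yki. The Pangolin core CTTTGAT occurred in 2 windows (4.65%), against 2.90% of all, and in the strongest kibra region it begins 3 bp before the summit, and the other was in wts intron 1.

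The helper sequence GCCGCC, which Pangolin is known to read beside its core, occurred in 3 windows (6.98%), against 8.71% of all, and in none together with the core. GAGAG occurred in 16 (37.2%), against 30.7% of all, with matches at ex, ds, wts, sd, Mer, kibra and ft summits. The core promoter sequences were each in 2 windows (4.65%): TATCGATA at p53 and RpL39, against 2.20% of all, and GGTCACACT at the promoters of Mer and Meltrin, against 1.69% of all. CACGTG was in 0 of the 43 and in 2.25% of all. A match of these short sequences is a description of the letters and shows no binding site, and the median GC content was 40.3% at Hippo summits and 39.8% at all summits.

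Further genes of the pathway were read the same way, from 3 lists of known regulators, partners and targets. Together 26 of 58 such genes (44.8%) had a promoter summit, beside the 21.1% of all protein-coding genes, and 23 of the 31 that are at least 10 kb long had one, beside 37.9%. Of 22 upstream regulators, 9 had one: app, dachs, sdt, msn, dlg1 and crb had the highest signals (951, 691, 663, 481, 383 and 258), and Tao, fj and Magi had weaker ones. app, which encodes a palmitoyltransferase, and dachs, an atypical myosin, both act downstream of Ft, and their summits were found in all 3 replicates.

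Of 23 genes for kinase partners, STRIPAK subunits and partners of Yki, 9 had a promoter summit. Tgi, which encodes a corepressor that binds Sd, had the highest signal (567), then 14-3-3zeta (514), Hipk (460), Sik3 (316), Nedd4 (305) and hth (262), and Cka, mask and Mob4 were weaker. mats, the cofactor of Wts, had none at its promoter. Of the 16 targets, 10 had one, with E2f1 (359), Ser (309), wg (299), crb (258), dlp (239) and Diap1 (230) the strongest, and fj, CycE, dally and vn weaker. The promoter summit was found in all 3 replicates for 5 of the 9 upstream regulators, 6 of the 9 partners and 4 of the 10 targets, or 15 of the 26 genes of the lists together. Of all protein-coding genes 10.7% had such a summit, beside 15 of the 58 listed genes. Among protein-coding genes with any promoter summit the share was 50.7%, and the 15 of 26 in the lists is near that share. Of the Yki targets, the growth gene Myc had no promoter summit and 5 in its neighbourhood.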

How the data were processed

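The deposited files are 5 peak lists on dm6: 1 relaxed list of 30000 regions per replicate, 1 from the pooled replicates, and 1 of 6626 peaks past a threshold on irreproducible discovery rate (IDR, agreement between replicates). Per the labels' notes deposited with each library, the authors derived each list from ChIP alignments and 1 shared control alignment. Peak caller and IDR threshold: neither name, version nor value is given in the sources used here. Deposited signal scores differ in scale between lists and were therefore ranked within a list. Ranking did not use the −log10 q values that the authors deposited, which are capped. Summits were placed on Ensembl release 115 genes (BDGP 6.54), counting positions from 1, and placement was tested on simulated summits. A summit was found in a replicate when 1 of its 6626 strongest regions had a summit within 100 bp.

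Python 3.11.15, pandas 2.3.3 and numpy 2.4.6 were used. The 10 genes, the wider lists and the motifs were chosen with earlier results of these data known. Named genes were all 10 members, genes sharing their summits (1 is not reported here), listed genes with a promoter summit (signals for up to 6 of highest signal per list), and the 3 genes closest to the top promoter. mats and Myc lie outside that rule and were chosen after their values were seen. dachs had been listed as d, an older symbol, and was matched after the files were read. Replicates of 1 group allow no test between groups, and none was run.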

Additional observations from a re-analysis of the deposited data

How the results depend on the processing

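The number of Hippo genes with a promoter summit (6) was 5 in a 250 bp window, 9 in a 1000 bp window (all but sav), 5 with the 3313 strongest peaks, 4 with peaks that every replicate held, and 6 with each summit given to its nearest TSS. The share of all protein-coding genes moved with these settings too, and was 17.8%, 24.9%, 11.9%, 10.7% and 16.7% in the same order, in place of 21.1%. Genes with a summit in the body or within 5 kb (10) numbered 7 to 9 under the narrower rules. No share of all protein-coding genes is given for those rules, so these counts cannot be read as particular to the Hippo genes. The 43 summits became 23 in gene bodies only, 24 with the 3313 strongest peaks and 24 with peaks that every replicate held, since each rule removes summits. The 24 found in all 3 replicates became 38 with all regions of each replicate and 11 with the 3313 top regions, and ran from 27 to 30 when 1 replicate was left out. For these settings no share of all thresholded summits is given. The mean over replicates (6.67) became 9 with all regions and 4 with the 3313 top regions, and ran from 6 to 7.5 without 1 replicate. For all regions the shares of all genes are those of the relaxed lists above, and for the 3313 top regions none is given. The wider lists gave 13 genes with the 3313 strongest peaks and 15 with peaks that every replicate held, in place of 26. Windows with the Scalloped core numbered 1 when read 50 bp either side of the summit and 9 when read 200 bp either side, beside 3.97% and 16.3% of all summits. In the 1000 bp window the promoter percentile of ds was 99.4 in place of 47.6, and that of ex 95.5 in place of 88.9. Mer stayed at 95.8 there, so it no longer came first. The yki summit 534 bp upstream, at a mean percentile of 98.0, also falls within that window. No paired analysis was possible because all replicates belong to 1 group.

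Read depth is unknown, so no counting interval can be given. The control was shared by all 3 replicates, and errors in it can recur in every list. With 3 replicates of 1 group and 10 genes, shares beside the background are a description.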

Other observations

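The microRNA gene bantam (mir-ban in the annotation, chr3L:642208-642288), a growth-promoting target of Yki in flies, is not protein-coding and was counted in none of the lists. It had 2 thresholded summits within 5 kb, and the nearer, 1476 bp away, had a signal of 880 and rank 532. In the relaxed lists 9, 10 and 9 regions of replicates 1, 2 and 3 lay within 5 kb. The nearest of these were 409, 457 and 459 bp from the gene and ranked 25276, 6277 and 16716, so the regions closest to it were weak in replicates 1 and 3.

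Relaxed regions within the body or 5 kb were most numerous at ds among the Hippo genes, with 48, 57 and 59 in replicates 1, 2 and 3. These counts are not scaled by length, and ds is the longest of the genes. It spans 74971 bp, against 26573 for kibra, 17475 for ex and 16995 for wts. No such counts for other genes are set beside them. kibra had 22, 25 and 21, ex had 24, 18 and 17, and wts had 18, 20 and 20. At sd, with 9, 8 and 6, and at ft, with 12, 11 and 9, there were fewer although their lengths are close to that of kibra. sav had 3 in each replicate.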
